A study of Mus musculus with 21 samples.

Results

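The 7 genes described here encode parts of the interleukin-15, interleukin-2 and interleukin-18 systems: the cytokines Il15 and Il18, and the receptor chains Il15ra, Il2rb, Il2rg, Il18r1 and Il18rap. They were taken from the deposited matrix by gene symbol and are 7 of the 750 genes of a NanoString immune panel, an assay that tallies barcoded probes bound to RNA. The panel was read in 21 libraries of total RNA from whole tumors grown by implanting cells of the mouse Lewis lung carcinoma line LLC in the flank of male C57BL/6 mice. Of these, 8 were wild-type hosts whose tumors were injected with a STING agonist, which the series text calls cGAMP. Another 4 were hosts labelled TMEM173gt, a germline loss of STING function known as goldenticket, whose tumors received PBS as sham. The remaining 9 were wild-type hosts with PBS sham. The implanted LLC cells carry their own copy of the STING gene, so the mutation is one of the host and not of the tumor cells. No agonist-treated tumor of a STING-deficient host was analysed here. Nothing in the labels ties each library to a mouse of its own, and p-values here reflect the variation among these libraries, which may be partly technical.

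Interleukin-15 is presented on the surface of the cell that makes it by its own alpha chain, encoded by Il15ra, and is read by neighbouring lymphocytes through the beta chain (Il2rb) and the common gamma chain (Il2rg). Interleukin-2 uses the same beta and gamma chains, and the gamma chain also serves the receptors of interleukins 4, 7, 9 and 21. Interleukin-18 is made as a precursor that caspase-1 cleaves, binds the chain encoded by Il18r1, and signals once the accessory chain encoded by Il18rap joins. Both cytokines are known as activators of natural killer (NK) cells and T cells.

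The deposited values are on a linear scale and were normalized by the authors in a way not given in the sources used here. Their sums per library ranged between 249154 and 888242 in agonist tumors, between 225810 and 286507 in STING-deficient sham tumors and between 240633 and 299484 in wild-type sham tumors. Over the 689 tested genes the log2 fold change had a median of 0.98 for agonist against wild-type sham and -0.28 for STING deficiency against wild type. With TMM scaling, which rescales a library by the trimmed mean of its gene ratios, these medians were 0.11 and -0.04, so the main fold changes of the 7 genes are given under both scalings. Agonist replicates 6, 7 and 8 are the 3 libraries written with 2 decimals, all of 1 group. The labels name the tissue lung, and 3 of 7 listed epithelial markers were on the panel, with summed values of 115 to 686 in agonist, 42.3 to 137 in STING-deficient sham and 62.1 to 145 in wild-type sham tumors.

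**Figure D1:**
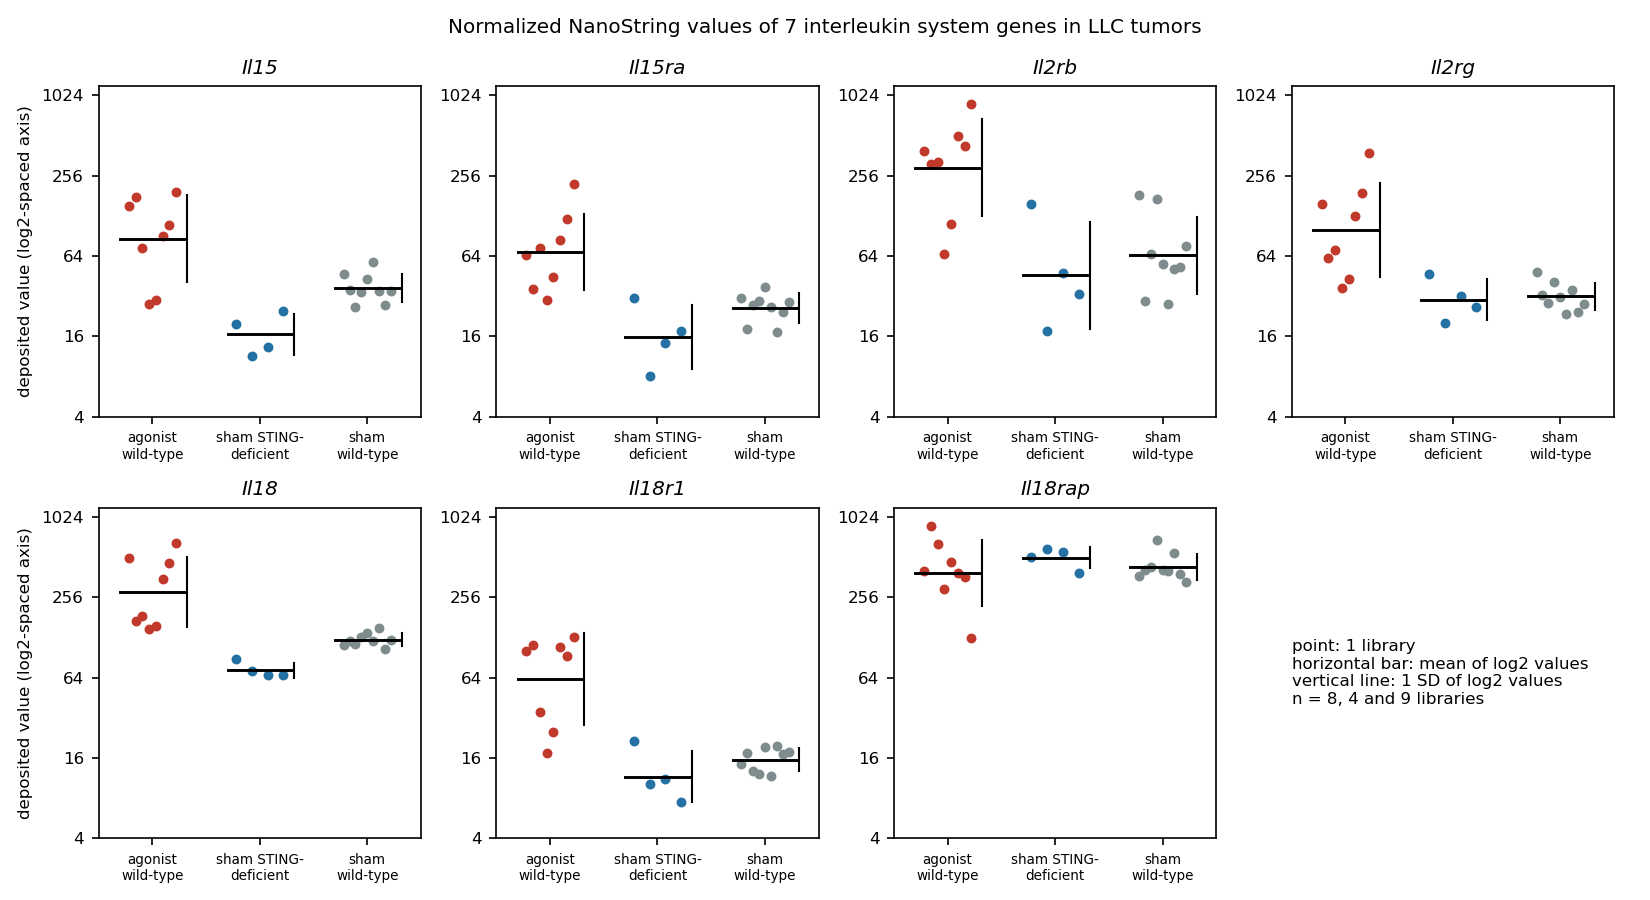
Deposited value (log2-spaced vertical axis, same range in each panel) of each gene in each library, by group. Points are libraries, bars the mean and vertical lines 1 SD of the log2 values; for Il15 the 4 STING-deficient sham libraries lie between 11.5 and 24.9, below all 9 wild-type sham libraries, and for Il18rap the 3 groups overlap.

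The first comparison asks how agonist changed these genes in wild-type hosts. In agonist tumors 6 of the 7 genes were higher than in wild-type sham tumors, and Il18rap, the accessory chain of the interleukin-18 receptor, did not pass the test. Of the 689 tested genes, 71.1% were higher and 0.726% lower (limma, adjusted p under 0.05), so 6 of 7 is near the share of the whole panel. The median log2 fold change of the 7 genes was 1.37, beside 0.98 for all tested genes. In RNA of a whole tumor, a change in the number of cells of a type and a change of RNA per cell cannot be told apart. With TMM scaling 3 of the 7 genes were higher (Il2rb, Il2rg and Il18r1, beside 9.87% of tested genes) and 1 was lower (Il18rap, beside 17.1%). Without agonist replicates 6, 7 and 8, a choice made after earlier results were known, 0 of 7 passed, beside 0.435% of tested genes. In that fit 6 of 7 had an unadjusted limma p under 0.05, beside 333 of the 689 tested genes. All 7 log2 fold changes lay there between 0.22 and 1.59, beside a median of 0.665 for all tested genes. A fit on the agonist and wild-type sham libraries alone called the same number, 6 higher and 0 lower, beside 67.5% of tested genes higher and 0.29% lower. Agonist and wild-type sham libraries were fully separated for 0 of the 7 genes, beside 1.16% of tested genes separated in the higher direction. All 7 genes passed the filter on low values, a value of at least 20 in at least 4 libraries. Il18r1 passed it through 7 agonist libraries and 1 STING-deficient library, with 0 wild-type sham libraries at 20 or above, which favors a call of higher, and without any filter the count of called genes was also 6.

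Il15 had values between 28.1 and 192 with a median of 99.5 in agonist tumors, 19.7, 11.5, 13.4 and 24.9 in STING-deficient sham tumors, and between 26.6 and 57.8 with a median of 35.2 in wild-type sham tumors. The agonist values overlapped the wild-type sham values in replicates 4 and 5, the other 6 lying above the highest sham library, and the 4 STING-deficient libraries lay below both other groups. Against wild-type sham, Il15 was higher after agonist by 1.21 ± 0.35 log2 units (SE; adjusted p = 0.00619), with 6 of 8 libraries over the sham mean. With TMM scaling the value was 0.33 (adjusted p = 0.243).

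Il15ra, which holds interleukin-15 for presentation, had values between 30.0 and 220 with a median of 69.0 in agonist tumors, 30.8, 8.12, 14.2 and 17.4 in STING-deficient sham tumors, and between 17.1 and 37.8 with a median of 27.6 in wild-type sham tumors. In 6 of 8 agonist libraries it lay above the highest wild-type sham library. It was higher after agonist by 1.37 ± 0.33 (SE; adjusted p = 0.00309), with 8 of 8 libraries over the sham mean, or 0.50 with TMM scaling (adjusted p = 0.131). The ligand and its presenting chain were therefore both called under the authors' scaling and, with all libraries in the fit, neither with TMM. Without agonist replicate 2, Il15ra passed with TMM scaling (0.66, limma adjusted p = 0.0290) and Il15 did not (0.22, adjusted p = 0.433). The log2 ratio of Il15ra to Il15 in the same library averaged -0.32 ± 0.94 in agonist and -0.48 ± 0.42 in wild-type sham tumors (SD, n = 8 and 9), a difference of 0.16 (exact permutation, two-sided, p = 0.667; adjusted over 27 ratio tests, p = 0.700).

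Il2rb, the signalling chain shared by the interleukin-2 and interleukin-15 receptors, had values between 65.8 and 887 with a median of 359 in agonist tumors, 156, 17.6, 48.2 and 33.2 in STING-deficient sham tumors, and between 27.8 and 185 with a median of 56.2 in wild-type sham tumors. Wild-type sham replicates 1 and 4, at 185 and 171, and STING-deficient replicate 1, at 156, stood well above the rest of their groups and overlapped the lowest agonist libraries. Il2rb was higher after agonist by 2.16 ± 0.50 (SE; adjusted p = 0.00292), and the change ranked 9 of 689 from the top. On the log2 scale replicate 4 lay 0.02 above the wild-type sham mean and the other 7 agonist libraries at least 0.78 above it. With TMM scaling it was 1.28 (adjusted p = 0.0208) and ranked 9 as well.

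Il2rg, the common gamma chain, had values between 36.8 and 380 with a median of 99.5 in agonist tumors, 47.1, 20.3, 32.4 and 26.5 in STING-deficient sham tumors, and between 23.6 and 48.8 with a median of 31.3 in wild-type sham tumors. The sham groups lay over one another, and 6 of 8 agonist libraries exceeded the highest wild-type sham library. Il2rg was higher after agonist by 1.63 ± 0.36 (SE; adjusted p = 0.00276) and by 0.75 with TMM scaling (adjusted p = 0.0186), although with TMM scaling it did not pass without agonist replicate 7 (0.66, adjusted p = 0.0533). Within libraries, the ratios of Il2rb and of Il2rg to Il15 differed between agonist and wild-type sham by 0.96 and 0.42, neither past the threshold (exact permutation, adjusted p = 0.115 and 0.294 over 27 ratio tests). Without agonist replicate 2, whose Il15 value was 178, the Il2rg to Il15 difference was 0.66 (adjusted p = 0.0197), and without wild-type sham replicate 4 the Il2rb to Il15 difference was 1.14 (adjusted p = 0.0390).

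Il18 had values between 147 and 648 with a median of 267 in agonist tumors, 87.4, 71.7, 67.1 and 66.4 in STING-deficient sham tumors, and between 104 and 150 with a median of 121 in wild-type sham tumors. Its spread within each sham group was small, with a coefficient of variation of 13.4% in STING-deficient and 11.3% in wild-type sham tumors, and the 2 sham groups did not overlap. Only agonist replicate 4 fell below the highest wild-type sham library. Il18 was higher after agonist by 1.18 ± 0.27 (SE; adjusted p = 0.00276), with 8 of 8 libraries over the sham mean, or 0.30 with TMM scaling (adjusted p = 0.152). With TMM scaling it passed without agonist replicate 2 (0.43, limma adjusted p = 0.0156).

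Il18r1, the chain that binds interleukin-18, had values between 17.4 and 128 with a median of 97.6 in agonist tumors, 21.4, 10.2, 11.1 and 7.46 in STING-deficient sham tumors, and between 11.8 and 19.6 with a median of 17.0 in wild-type sham tumors. In 7 of 8 agonist libraries it exceeded all wild-type sham libraries. It was higher after agonist by 1.95 ± 0.36 (SE; adjusted p = 0.00193; rank 20 of 689) and by 1.08 with TMM scaling (adjusted p = 0.00889).

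Il18rap, which Il18r1 needs in order to signal, had values of 405, 867, 638, 294, 465, 387, 361 and 126 in agonist replicates 1 to 8, 515, 588, 559 and 387 in STING-deficient sham tumors, and between 331 and 684 with a median of 407 in wild-type sham tumors. The agonist group held both the highest and the lowest value of this gene in the series, and the 3 groups overlapped. Agonist replicate 8, lowest for Il18rap, was the highest agonist library for each of the other 6 genes. Il18rap differed between agonist and wild-type sham by -0.14 ± 0.27 with the deposited scaling (95% interval -0.69 to 0.42, adjusted p = 0.657), which ranked 662 of 689 from the top. With TMM scaling it was called lower at -1.02 (adjusted p = 0.0346), a call that was lost in 8 of 21 fits that each left out 1 library: without agonist replicate 1, 6, 7 or 8 or wild-type sham replicate 3, 6, 7 or 8, with adjusted p between 0.0505 and 0.0650. Without agonist replicate 8 the difference stood at 0.10, or at -0.67 once TMM scaling was applied.

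**Figure D2:**
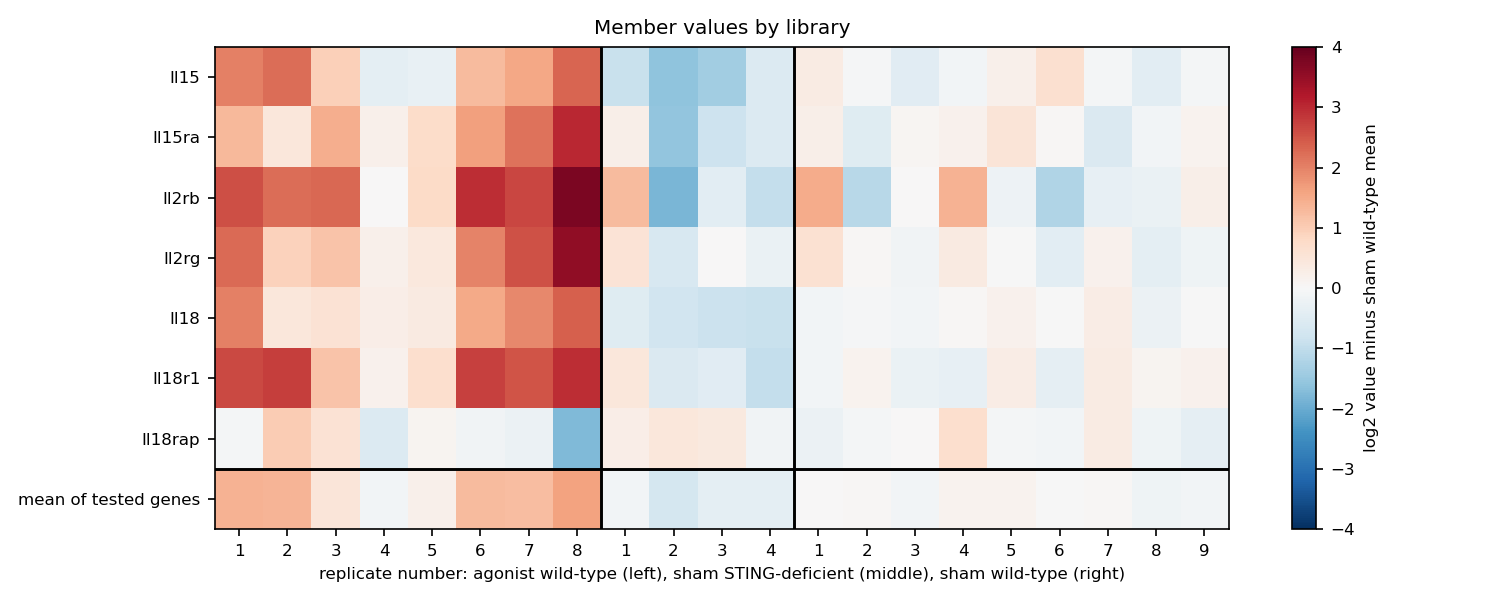
Log2 value of each gene minus its wild-type sham mean, by library (columns, replicate numbers within each group) with the mean of all tested genes in the bottom row. Agonist replicates 4 and 5 stay within -0.39 to 0.78 for the 6 genes other than Il18rap, and replicate 8 combines 2.34 to 3.75 for those genes with -1.76 for Il18rap. The bottom row stands at -0.11, 0.19 and 1.59 in agonist replicates 4, 5 and 8.

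The agonist libraries differed widely among themselves. Under the authors' scaling replicates 4 and 5 resembled sham. The 6 genes other than Il18rap lay there between -0.39 and 0.26 and between -0.28 and 0.78 log2 units of the wild-type sham mean. In replicate 8 the same genes lay between 2.34 and 3.75 above it. The mean of all tested genes moved likewise, at -0.11, 0.19 and 1.59 in replicates 4, 5 and 8. With TMM scaling Il18 in replicate 4 (192), and Il15ra and Il18r1 in replicate 5 (49.0 and 27.8), exceeded all wild-type sham libraries. The other values of the 6 genes in replicates 4 and 5 did not. In replicate 2 the deposited values of Il15 and Il18r1 were high at 178 and 112, while those of Il15ra and Il18 were low for the group at 36.0 and 170. Most of the panel was higher in agonist than in wild-type sham tumors, 71.1% of tested genes or 9.87% with TMM scaling (and 17.1% lower), and the marker counts stand beside those shares. Of the NK cell markers 10 of 10 were higher after agonist (7 with TMM scaling), and their summed value ranged between 439 and 3586 in agonist, 114 and 610 in STING-deficient sham and 219 and 682 in wild-type sham tumors. For T cells 12 of 13 markers were higher (6 with TMM scaling), with sums of 444 to 3203, 229 to 502 and 393 to 557 in the same order of groups. Of 11 macrophage and monocyte markers 9 were higher (0 with TMM scaling, where 1 was lower), with sums of 4764 to 20060, 4331 to 5930 and 4715 to 6061. Higher markers also numbered 5 of 7 for dendritic cells, 5 of 7 for neutrophils, 4 of 6 for B cells, 3 of 3 for epithelium, 3 of 6 for fibroblasts and 7 of 8 for endothelium. With TMM scaling these were 1, 1, 2, 0, 0 (and 1 lower) and 0. The part of these cells in the results was not tested.

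**Figure D3:**
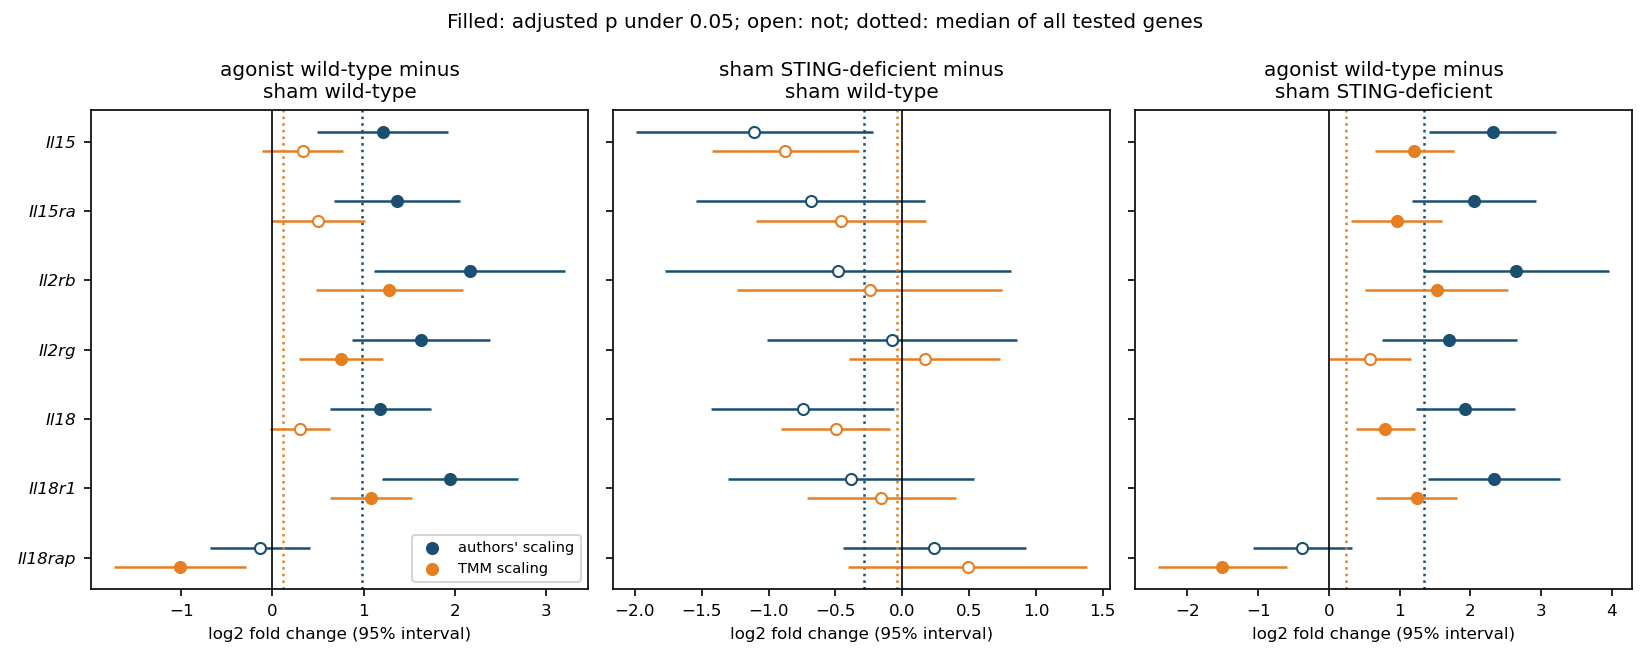
Log2 fold change with 95% interval of each gene in the 3 comparisons, under the authors' scaling and TMM scaling; filled points have an adjusted p under 0.05 and dotted lines mark the median of all tested genes. For agonist against wild-type sham, Il2rb, Il2rg and Il18r1 are filled under both scalings, Il15, Il15ra and Il18 under the authors' scaling, and Il18rap, at -1.02, with TMM scaling.

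A ratio of 2 probes in the same library does not depend on how that library was scaled, apart from the 1 added to each value, so ratios were used to set cytokines against receptor chains and the chains of a receptor against each other. They show unequal change, and not which of the 2 genes changed. Of 9 ratios, 2 differed between agonist and wild-type sham, and both involve the interleukin-18 receptor. The ratio of Il18rap to Il18r1 was 3.97, 7.78, 18.03, 16.9, 18.5, 3.56, 3.87 and 0.982 in agonist replicates 1 to 8, and between 18.8 and 56.8 in wild-type sham tumors. The groups did not overlap, although agonist replicates 3 and 5 came close to the lowest sham library. The mean log2 ratio was 2.62 ± 1.47 in agonist and 4.70 ± 0.47 in wild-type sham tumors (SD, n = 8 and 9), a difference of -2.08, or 4.24-fold lower (exact permutation, two-sided, p = 4.11e-05, the smallest these groups can give; adjusted p = 0.00111; lower in 8 of 8 libraries). Leaving out any 1 library kept the difference between -2.30 and -1.70 and past the threshold. Without agonist replicates 6, 7 and 8 together it was smaller, at -1.26, and still passed (exact permutation, adjusted p = 0.0135).

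The ratio of the binding chain to its cytokine, Il18r1 to Il18, moved the other way. Its mean log2 value was -2.14 ± 0.72 in agonist and -2.90 ± 0.26 in wild-type sham tumors (SD, n = 8 and 9), a difference of 0.76 (exact permutation p = 0.00152, adjusted p = 0.0137), with 7 of 8 agonist libraries higher than the sham mean. Without agonist replicates 6, 7 and 8 it was 0.74 and did not pass (adjusted p = 0.0566). The ratio of Il18rap to Il18 differed by -1.32 without passing (exact permutation p = 0.0132, adjusted p = 0.0546), and it passed without agonist replicate 2, 3 or 5 (-1.59, -1.51 and -1.48; adjusted p = 0.0142, 0.0273 and 0.0323). The ratio of the cytokines themselves, Il15 to Il18, averaged -1.68 ± 0.78 in agonist and -1.70 ± 0.35 in wild-type sham tumors, a difference of 0.02 (exact permutation, adjusted p = 0.949).

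**Figure D4:**
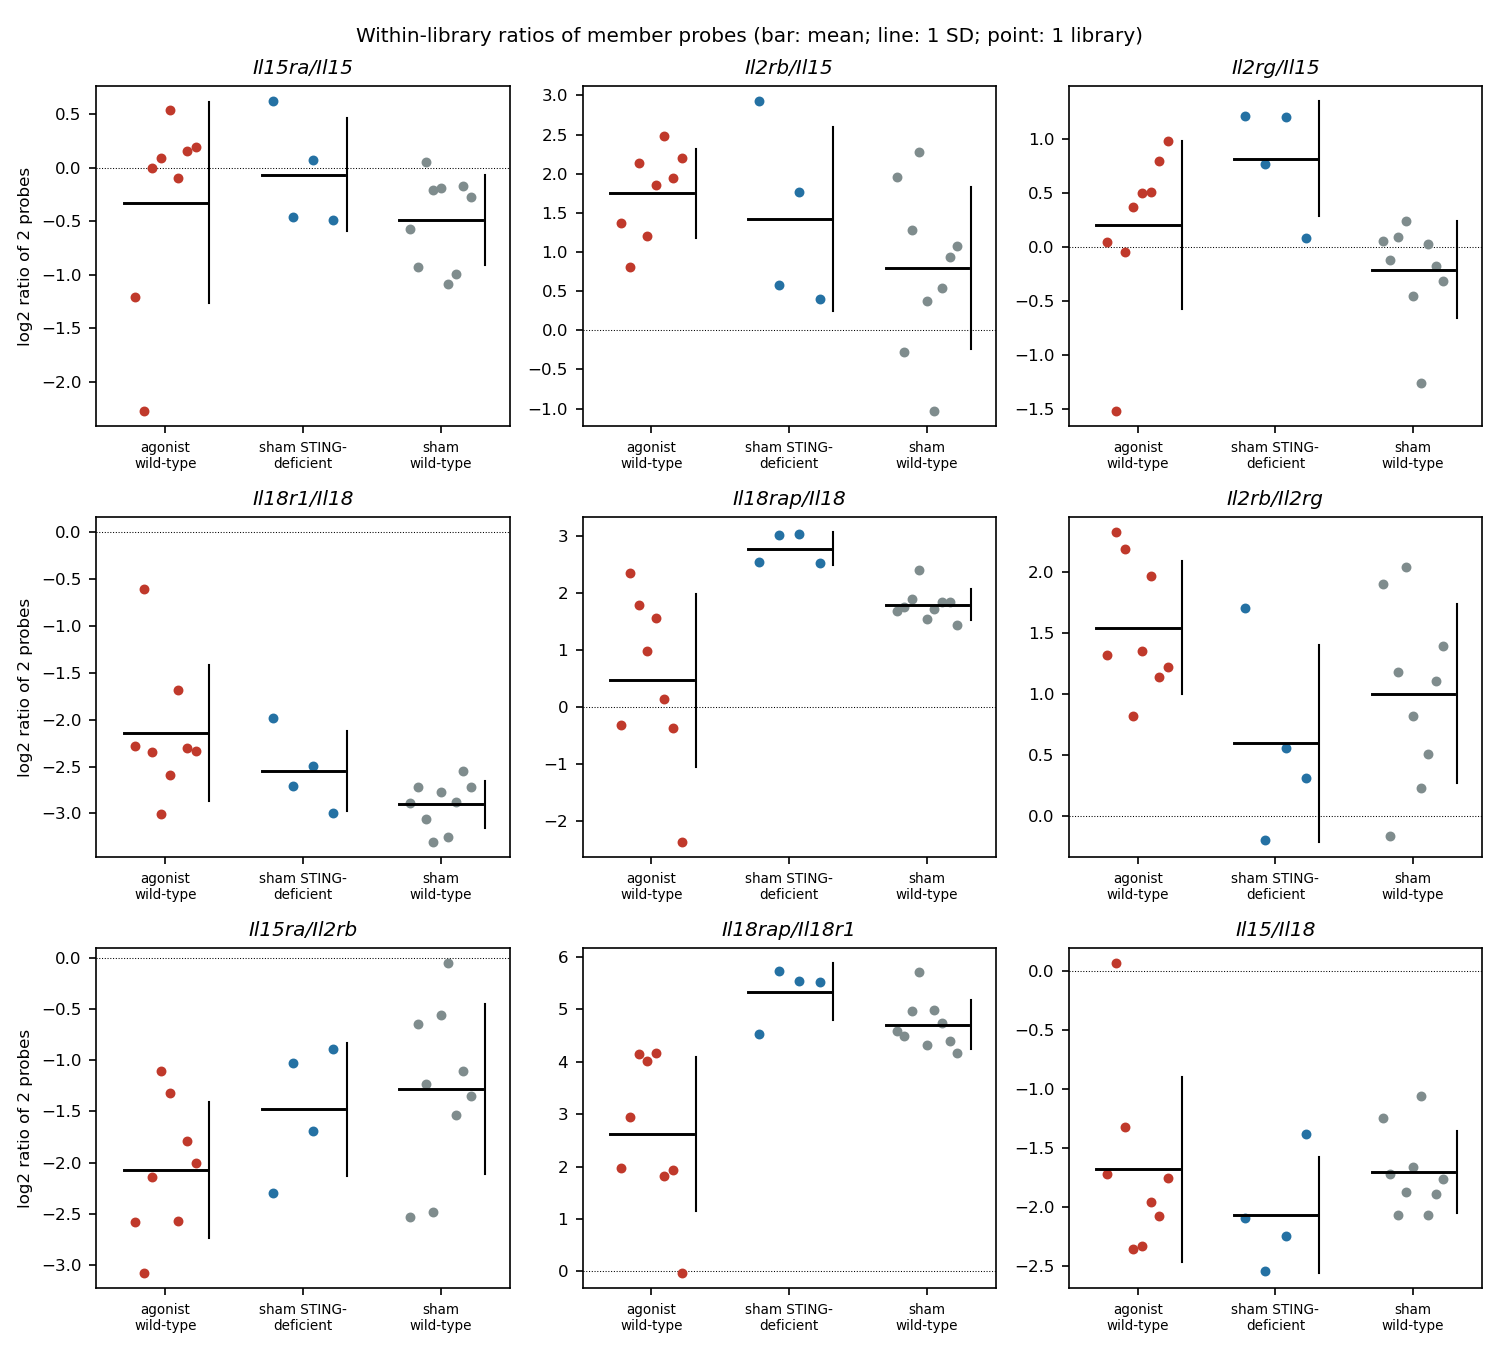
Log2 ratio of 2 probes within each library for the 9 ratios, by group; points are libraries, bars means and vertical lines 1 SD. The panel of Il18rap to Il18r1 shows the 8 agonist libraries between -0.03 and 4.15 and the 9 wild-type sham libraries between 4.16 and 5.71, and the panel of Il18rap to Il18 shows the 4 STING-deficient sham libraries between 2.53 and 3.04 and the wild-type sham libraries between 1.44 and 2.41.

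Il18r1 and Il18rap are neighbours on mouse chromosome 1, with no other gene listed between them, and Il15ra is the presenting chain of the other cytokine. Windows of 250 bases before an annotated start were available from RefSeq (build GRCm38.p6) for 5 of the 7 genes, all but Il15 and Il2rb. They were searched on both strands for GAAANNGAA, the core of interferon response elements, for the same letters with a further A, and for TTCNNNGAA, the core of STAT sites. Of 32851 windows of this length, 7.13%, 2.98% and 7.02% hold them, and each window with the longer form also holds the shorter. The windows of the 2 interleukin-18 receptor chains are shown because these neighbours gave the clearest difference of ratio, and that of Il15ra because it holds the only GAAANNGAA match, 149 bases before the start on the minus strand. The shown Il18r1 window, 1 of 3, holds 2 TTCNNNGAA matches, 219 and 152 bases before the start; capitals mark matches. The other windows of Il15ra (1) and Il18r1 (2) and those of Il2rg, Il18 and Il18rap hold none of the 3 motifs. A match describes letters and is no evidence of binding.
Il18r1 promoter, chr1:40465756-40466005, plus strand: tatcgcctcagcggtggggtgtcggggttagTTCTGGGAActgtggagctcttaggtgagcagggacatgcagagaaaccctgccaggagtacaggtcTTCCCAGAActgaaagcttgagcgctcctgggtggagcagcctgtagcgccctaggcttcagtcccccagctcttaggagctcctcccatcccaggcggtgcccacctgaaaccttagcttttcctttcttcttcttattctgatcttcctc
Il18rap promoter, chr1:40515112-40515361, plus strand: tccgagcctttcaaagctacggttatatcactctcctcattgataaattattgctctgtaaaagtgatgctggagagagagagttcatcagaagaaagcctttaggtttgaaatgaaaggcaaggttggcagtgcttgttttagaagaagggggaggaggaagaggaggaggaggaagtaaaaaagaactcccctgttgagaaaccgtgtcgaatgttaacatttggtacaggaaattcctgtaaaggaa
Il15ra promoter, chr2:11705043-11705292, plus strand: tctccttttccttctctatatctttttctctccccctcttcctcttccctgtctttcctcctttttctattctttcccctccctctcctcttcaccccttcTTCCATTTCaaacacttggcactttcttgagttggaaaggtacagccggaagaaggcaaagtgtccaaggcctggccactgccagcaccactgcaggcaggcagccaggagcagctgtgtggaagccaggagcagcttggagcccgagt

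The second comparison asks what host STING deficiency changed in sham tumors, and it uses the same wild-type sham libraries as the first. Both cytokine genes were lowest in STING-deficient hosts, where the 4 libraries lay below all 9 wild-type sham libraries for Il15 (17.4 ± 6.11 in STING-deficient and 38.0 ± 9.83 in wild-type sham tumors; SD, n = 4 and 9) and for Il18 (73.1 ± 9.79 and 123 ± 13.9). Such a lack of overlap was found in the lower direction for 5.66% of tested genes and for 2 of the 7 genes here. With TMM scaling the groups overlapped for Il15, where STING-deficient replicate 4 stood at 36.1 and wild-type sham replicate 3 at 33.9, and did not overlap for Il18. The log2 differences were -1.11 ± 0.43 for Il15 and -0.75 ± 0.33 for Il18 (SE; unadjusted p = 0.0167 and 0.0334), and neither passed the limma test over all genes (adjusted p = 0.329 and 0.461). Of the 7 genes 0 passed, beside 0.0% of tested genes higher and 2.76% lower. An unadjusted limma p under 0.05 in this fit was found for 2 of the 7 genes and for 64 of the 689 tested genes. That fit takes its spread from all 21 libraries, the variable agonist group included. Fitted on the 2 sham groups alone, both were called lower (Il15 adjusted p = 0.00806, Il18 adjusted p = 0.0019), 2 of 7 beside 11.6% of tested genes lower and 0.29% higher. Without agonist replicates 6, 7 and 8 in the fit, 0 of 7 passed, beside 3.19% of tested genes lower, and 2.9% with TMM scaling as well.

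With TMM scaling in all libraries Il15 stood at -0.88 (adjusted p = 0.0906) and Il18 at -0.50 (adjusted p = 0.286), and 0 of 7 passed, beside 3.34% of tested genes lower. There Il15 passed without agonist replicate 2 (-0.88, adjusted p = 0.0390) or without STING-deficient replicate 4 (-1.06, adjusted p = 0.0465). The receptor chains Il15ra, Il2rb, Il2rg, Il18r1 and Il18rap differed by -0.69, -0.48, -0.08, -0.39 and 0.24 under the authors' scaling, with adjusted p between 0.630 and 0.970 and 95% intervals that include 0. With TMM scaling they differed by -0.46, -0.24, 0.17, -0.16 and 0.49, so that the sign for Il2rg turned, and none passed. Fitted on the 2 sham groups alone, Il15ra had an interval of -1.30 to -0.08 and an unadjusted p of 0.0300 without passing (limma, adjusted p = 0.140), and the other 4 chains had intervals that include 0.

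Of the 9 ratios 2 passed in this comparison, each of a receptor chain to a cytokine. Il18rap to Il18 was 5.89, 8.20, 8.33 and 5.84 in STING-deficient sham tumors and between 2.73 and 5.35 in wild-type sham tumors, with no overlap. The log2 means were 2.78 ± 0.28 in STING-deficient and 1.80 ± 0.27 in wild-type sham tumors (SD, n = 4 and 9), a difference of 0.98 (exact permutation, two-sided, p = 0.0014, the smallest these groups can give; adjusted p = 0.0137), and it stayed past the threshold when any 1 library was left out. The ratio of Il2rg to Il15 was 2.39, 1.77, 2.41 and 1.07 in STING-deficient sham tumors and between 0.407 and 1.19 in wild-type sham tumors, where STING-deficient replicate 4 overlapped. It differed by 1.03 on the log2 scale (exact permutation p = 0.0042, adjusted p = 0.0283; 4 of 4 libraries above the wild-type mean). That call was lost without STING-deficient replicate 1, 2 or 3 (0.90, 1.05 and 0.90; adjusted p = 0.0614, 0.0736 and 0.0982). Ratios of Il15ra to Il15, Il18r1 to Il18 and Il2rb to Il15 differed by 0.42, 0.36 and 0.62 without passing (exact permutation, adjusted p = 0.279, 0.186 and 0.496). The ratio of Il18rap to Il18r1 differed by 0.62 (adjusted p = 0.154) and passed without wild-type sham replicate 4 (exact permutation, 0.75, adjusted p = 0.0390). None of the marker lists had a called gene in this comparison in the fit on all 21 libraries, and they were not counted in the fit on the 2 sham groups alone. Summed NK markers were 114 to 610 in STING-deficient and 219 to 682 in wild-type sham tumors.

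The third comparison sets agonist tumors of wild-type hosts against sham tumors of STING-deficient hosts, which differ in both treatment and genotype, and it shares its libraries with the first and second. Again 6 of 7 genes were higher, all but Il18rap, beside 73.6% of tested genes higher and 0.581% lower. The log2 differences were 2.32 ± 0.44 for Il15 (SE; adjusted p = 0.000361), 2.05 ± 0.42 for Il15ra, 2.65 ± 0.64 for Il2rb, 1.70 ± 0.46 for Il2rg, 1.93 ± 0.33 for Il18 (adjusted p = 0.000208) and 2.33 ± 0.45 for Il18r1, beside a panel median of 1.35. The 2 groups did not overlap for Il15 and Il18, as for 16.5% of tested genes in that direction, but for both genes they overlapped with TMM scaling. With TMM scaling 5 of 7 were higher (beside 19.3%), with Il2rg at 0.59 (adjusted p = 0.0964), and Il18rap was lower at -1.51 (adjusted p = 0.0111, beside 19.3% lower), against -0.37 (adjusted p = 0.314) under the authors' scaling. The 5 higher genes stood with TMM scaling at 1.21 (Il15), 0.96 (Il15ra), 1.53 (Il2rb), 0.80 (Il18) and 1.24 (Il18r1), beside a panel median of 0.25. Fitted on these 2 groups alone, 6 of 7 were higher (beside 52.5%), and without agonist replicates 6, 7 and 8 also 6 of 7 (beside 53.8%). With those libraries left out and TMM scaling, 3 of 7 were higher (beside 11.6%) and Il18rap was lower at -0.93 (adjusted p = 0.0259, beside 13.6% lower). With TMM scaling Il15ra did not pass without agonist replicate 7 or STING-deficient replicate 2 or 3 (0.85, 0.74 and 0.90; adjusted p = 0.0507, 0.108 and 0.0546). Il2rb there did not pass without STING-deficient replicate 2 or 4 (1.16 and 1.37; adjusted p = 0.102 and 0.0604), and Il2rg passed without agonist replicate 2 (0.71, adjusted p = 0.0307).

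No ratio passed in the third comparison after adjustment over 27 tests, and 3 of 9 had an unadjusted exact permutation p under 0.05. The largest differences were those of Il18rap to Il18r1 (-2.71) and Il18rap to Il18 (-2.30), where 8 of 8 agonist libraries lay below all 4 STING-deficient libraries (exact permutation p = 0.0101 and 0.0141, adjusted p = 0.0546 for both). The first passed without agonist replicate 2, 3, 4, 5 or 8 or wild-type sham replicate 4, and the second without agonist replicate 2 or 3 or wild-type sham replicate 4 (adjusted p between 0.0234 and 0.0477); leaving out a wild-type sham library changes here only the other tests adjusted with it.

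Other genes of these pathways were read from 5 lists, whose counts stand beside 71.1% of tested genes higher, or 9.87% higher and 17.1% lower with TMM scaling. Of 11 tested genes of the other common gamma chain cytokines and receptor chains, 11 were higher in agonist tumors (2 with TMM scaling), with a median log2 fold change of 1.11. Among them Il2, Il4, Il7, Il9, Il13 and Il21 averaged 4.78 to 12.7 in wild-type sham tumors, and less in STING-deficient sham tumors. Those averages lie below the value set by the filter on low values. Agonist libraries therefore helped these genes pass it, which favors calls of higher in agonist tumors. Il7r, the interleukin-7 receptor, averaged 155 ± 111 in agonist and 28.9 ± 8.31 in wild-type sham tumors (SD, n = 8 and 9), higher by 1.91 ± 0.47 (SE; adjusted p = 0.00309), and Il21r, the interleukin-21 receptor, was higher by 1.46 (adjusted p = 0.00377). With TMM scaling these 2 stood at 1.04 and 0.59 (limma, adjusted p = 0.0182 and 0.0468). Downstream of the interleukin-2 and interleukin-15 receptor, 11 of 12 genes were higher, with a list median of 0.85, but with TMM scaling 1 was higher and 2 lower. Lck, a tyrosine kinase of T cells and NK cells, was higher by 2.04 (adjusted p = 0.00318) and stayed called with TMM scaling at 1.18 (adjusted p = 0.0332). Its averages of 15.1 in wild-type sham and 11.7 in STING-deficient sham tumors also lie below the filter value, which may favor this call. Jak3, the kinase bound to the common gamma chain, was higher by 1.03 (adjusted p = 0.00454), or 0.15 with TMM scaling.

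In the list of interleukin-18 maturation and signalling, 7 of 15 genes were higher, with a median of 0.32, and with TMM scaling 1 was higher and 9 lower, so the direction of this list rests on the scaling. Irak3, an inhibitory member of the kinase family below these receptors, was higher under both scalings at 1.73 and 0.86 (adjusted p = 0.00295 and 0.0182). Myd88, the adaptor of the receptor complex, was higher by 0.51 (adjusted p = 0.0102), but stood at -0.37 with TMM scaling (adjusted p = 0.0777). Casp1, which encodes the protease that matures interleukin-18 and was chosen after its values were seen, averaged 719 ± 144 in agonist, 748 ± 85.8 in STING-deficient sham and 765 ± 92.7 in wild-type sham tumors (SD, n = 8, 4 and 9). It differed by -0.11 between agonist and wild-type sham (adjusted p = 0.486) and was called lower with TMM scaling (-0.99, adjusted p = 0.0130).

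Of 7 tested genes of the interleukin-12 system and interferon gamma, which act together with interleukin-18 on NK and T cells, 7 were higher after agonist (2 with TMM scaling), with a median of 1.42. Il12rb1, a chain of the interleukin-12 receptor, averaged 32.6 ± 24.3 in agonist and 5.50 ± 1.55 in wild-type sham tumors (SD, n = 8 and 9), higher by 1.99 (adjusted p = 0.00276), and Stat4, the transcription factor it activates, averaged 58.7 ± 36.4 and 17.0 ± 5.21 (adjusted p = 0.00276). Both were also called with TMM scaling, at 1.17 and 0.64 (adjusted p = 0.00889 and 0.0410). Il12rb1, Il23a, Tbx21 and Ifng averaged 5.50 to 10.9 in wild-type sham and 3.8 to 8.9 in STING-deficient sham tumors. Those averages lie below the value set by the filter on low values. Agonist libraries therefore helped these genes pass it, which favors calls of higher in agonist tumors. Stat4 and Il12b averaged 17.0 and 18.8 in wild-type sham and 15.1 and 16.2 in STING-deficient sham tumors. These averages also lie below that value, so the same may hold for these 2 genes. Il12a, Il12rb2 and Il23r of this list were not tested. Among 8 other interleukin-1 family genes 5 were higher, with Il1r2, a decoy receptor, at 1.13 (adjusted p = 0.0079), or 0.25 with TMM scaling, where 0 were called. For STING deficiency against wild type no gene of the 5 lists was called in either direction in the fit on all 21 libraries. That fit called 19 tested genes lower. The fit on the 2 sham groups alone called 80 lower and 2 higher, and the lists were not counted in it. For agonist against STING-deficient sham, 11 of 11, 8 of 12, 8 of 15, 7 of 7 and 6 of 8 genes of the lists were higher in the order given here, beside 73.6% of tested genes. With TMM scaling 2, 1, 1, 2 and 1 were higher, beside 19.3%, and 2 of the second and 8 of the third list were lower, also beside 19.3%.

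For each of the 7 genes the tested genes of most similar pattern were sought by Pearson's r of log2 TMM-scaled values over the 21 libraries, pooled over the 3 groups and so carrying their differences. Il2rb was most like Ctsw (r = 0.93), Prf1 (0.92) and Ptprc (0.90), which encode cathepsin W, perforin and the leukocyte antigen CD45. Il18r1 was most like Klrc2 (0.90), Il12rb1 (0.89) and Il7r (0.85), 3 receptor genes of lymphocytes. Among the genes most like Il15 were the interferon-inducible genes Rsad2 (0.86) and Oasl1 (0.84), and Il15ra was most like Cyfip2 (0.88), Psmb9 (0.85) and Irgm2 (0.84). Il2rg was most like C3ar1 (0.91), Cd164 (0.91) and Csf1r (0.90), of which Csf1r encodes the macrophage growth factor receptor, and Il18 like Cfb (0.83), Kdr (0.82) and Ifit2 (0.80). The 3 nearest genes of Il18rap were Tnfrsf10b (0.94), Mapk11 (0.93) and Sigirr (0.93), the last an inhibitory receptor of the interleukin-1 receptor family. Under the authors' scaling these 3 values were 0.80, 0.67 and 0.75, and Spearman's rho with TMM scaling was 0.76, 0.60 and 0.68.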

How the data were processed

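Per the labels' protocols, total RNA of whole tumors was extracted with TRIzol and read on a NanoString panel. The authors deposited a matrix of normalized signal values for 750 genes in 21 libraries; how they were normalized is not given in the sources used here. The files per library equalled the matrix within 0.05 and served for that check.

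Analysis used log2(value + 1), which shrinks the changes of weakly expressed genes. Genes at 20 or above in at least 4 libraries were tested, 689 in all. One mean for each group was fitted to all 21 libraries by limma 3.58.1 with a trended, robust eBayes step, and p-values were adjusted by Benjamini-Hochberg over genes within each of 3 comparisons, at 0.05. In each comparison 9 ratios, log2((a + 1)/(b + 1)), were compared by two-sided exact permutation over libraries (scipy 1.17.1), adjusted over 27 tests. Both tests were checked on simulated data with equal spread in the groups and no shifts of whole libraries. Spreads here were unequal, as for Il18 with a log2 SD of 0.86 in agonist and 0.157 in wild-type sham tumors. The checks therefore cannot show how the tests behave under such spreads.

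The alternatives were TMM and median-of-ratios scaling, pseudocounts, filters, a replicate block, fits of 2 groups and leaving out libraries. The 7 genes and all lists were chosen with earlier results of these data known. Named genes are the 7 members, the 3 most similar genes of each, and per list and comparison at most the 4 with the smallest adjusted p, or the 2 of highest mean where fewer than 2 passed; the text names a part of these, and 1 similar gene is not reported here. All 7 members and 727 panel genes matched the reference table by accession. Marker lists cover NK cells, T cells, macrophages and monocytes, dendritic cells, neutrophils, B cells, epithelium, fibroblasts and endothelium.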

Additional observations from a re-analysis of the deposited data

Results flagged for a closer look

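Libraries far from the rest of their group were sought in 48 groups of values with Dixon's ratio at its 95% limit, which chance passes in about 1 of 20 groups, and 5 were found, all in ratios and none in the genes' own values. In agonist replicate 2 the log2 ratio of Il2rg to Il15 was -1.51 and that of Il15 to Il18 was 0.0672, far below and far above the other agonist libraries. In wild-type sham replicate 6 the ratio of Il2rg to Il15 was -1.26, the lowest of its group, and in wild-type sham replicate 4 the ratio of Il18rap to Il18 was 2.41, the highest. In STING-deficient sham replicate 1 the ratio of Il18rap to Il18r1 was 4.52, the lowest of the 4. The causes were not tested.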

How the results depend on the processing

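The 7 genes' calls kept their direction under all alternatives run here, and what moved was their number and which genes were called. The uncalled estimate of Il18rap for agonist against wild-type sham turned from -0.14 to 0.22 without agonist replicates 6, 7 and 8. Given as genes higher and genes lower, then members, agonist against wild-type sham had 68, 118, 3 and 1 with TMM scaling and 63, 118, 3 and 1 with median-of-ratios scaling. Agonist against STING-deficient sham had 133 and 133 with TMM and 114 and 158 with median-of-ratios scaling, each with 1 member lower. With TMM scaling higher genes made up 36.6% of calls for agonist against wild-type sham, beside 99% under the authors' scaling. Without agonist replicates 6, 7 and 8, agonist against wild-type sham had 3 genes higher, 0 lower and 0 members higher, with 1 ratio past the threshold, and agonist against STING-deficient sham 1 lower. With TMM scaling as well, the first had 0, 0 and 0, the second 80, 94, 3 and 1, and STING deficiency 1 gene higher. Fitted on 2 groups, genes lower were 2 and 0 for agonist against wild-type and STING-deficient sham, and STING deficiency had 2 higher, 80 lower and 2 members lower. A pseudocount of 20 left 7 genes lower under STING deficiency. The replicate numbers were not shown to pair libraries, since correlations of same-numbered libraries ran between -0.202 and 0.609. With the replicate block, genes lower were 3, 11 and 2 in the 3 comparisons and 0 and 0 ratios passed in the first and second. Ratios of agonist against STING-deficient sham numbered 1 with a pseudocount of 0 and 2 with 5. Leaving out 1 library, the first comparison had 433 to 539 genes higher, 2 to 9 lower and 2 to 4 ratios, the second 0 higher, 8 to 22 lower and 1 to 3 ratios, and the third 419 to 542, 1 to 9 and 0 to 2, with 6, 0 and 6 members higher and 0 lower throughout. The planned tests on whole counts recovered from the values (edgeR and DESeq2) and ratios of such counts were not run, since the values were not whole multiples of a step in all libraries. Depth behind the values is unknown, so counting error of low genes such as Il18r1 could not be given.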
